A study of Mus musculus with 12 samples.

Results

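The arrays compared here were 3 labelled IFN-beta induced FoxA1Treg and 3 labelled Encephalitogenic Tcells, 6 of the 12 Affymetrix Mouse430_2 arrays of the series. They were chosen by these titles, and normalization, filter and differences were computed from these 6 alone. All cells came from C57BL/10.RIII mice, a strain in which an autoimmune inflammation of the brain that models multiple sclerosis can be induced. The encephalitogenic T cells (EncT), which drive that inflammation, carried the surface label CD4+. The other group was labelled as regulatory T cells that take their name from the factor FoxA1, as induced with interferon beta, and as CD4hi and PD-L1hi. They are called iFoxA1Treg below, which gives their label and not an identity read from the data. The remaining groups, of 3 arrays each, were neuron induced FoxA1Treg (nFoxA1Treg, CD4hi and PD-L1hi) and Treg (CD4+ and TGFbeta+). Age, sex, dose and time of interferon treatment, and any pooling of animals are not given in the sources.

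Blood cells of each lineage carry a set of genes that the others keep low. T cells carry the CD3 chains that pass on the signal of their receptor, and B cells the CD79 chains. Macrophages carry the receptor for colony-stimulating factor, and neutrophils granule proteins and the calcium-binding pair S100A8 and S100A9. Interferon beta acts on nearly all of them through a shared receptor and a complex of transcription factors, which binds the interferon-stimulated response element in promoters of antiviral genes.

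Levels are given as log2(value + 16) for 1 probe set per gene, where the value is the deposited one on the linear scale, so that the lowest possible level is 4. A group mean under 5 is called near the floor. A fold change on this scale understates the change of a gene near the floor and depends there on the number added. The deposited table gives no detection calls. Values for single arrays are in the order of replicates 1, 2 and 3. Whether the replicates came from separate animals or cultures is not stated, so p-values here measure just the spread between these samples, which may be technical. The number of arrays limits the precision.

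The surface labels were first set against the genes that encode them. Cd4, which encodes the co-receptor that defines helper T cells, was at 10.55, 10.56 and 10.58 in EncT and at 5.17, 5.12 and 5.06 in iFoxA1Treg. The groups did not come close to each other, and all 3 iFoxA1Treg arrays were low for a gene that their label calls high. The difference was -5.45 (SE 0.0671, 43.6-fold lower, limma adjusted p = 2.8e-11), and a second Cd4 probe set was lower by a similar amount, at -4.66. Cd274, which encodes PD-L1, was at 7.84, 7.55 and 7.76 in EncT and at 10.04, 9.97 and 10.01 in iFoxA1Treg. Here the 3 iFoxA1Treg arrays were all higher, as their label has it, by 2.29 (SE 0.0803, adjusted p = 1.55e-08). Foxa1, the factor in the name of the cells, was near the floor in both groups, at 4.0, 4.0 and 4.06 in EncT and at 4.26, 4.03 and 4.35 in iFoxA1Treg. The difference of 0.19 (SE 0.0995) did not pass the test (adjusted p = 0.127). Foxp3, which defines conventional regulatory T cells, was at 4.57, 4.41 and 4.06 in EncT and at 5.60, 5.84 and 5.71 in iFoxA1Treg. The groups did not overlap, and the rise was 1.37 (SE 0.142, adjusted p = 1.66e-05) from a level near the floor. Thus the RNA of the iFoxA1Treg arrays went against the CD4hi label and with the PD-L1hi label. In nFoxA1Treg, also labelled PD-L1hi, Cd274 was at 7.54 against 7.80 in EncT, in a fit of their own. That difference of -0.26 did not pass the test (limma adjusted p = 0.151), so the label did not go with higher Cd274 RNA there. Whether the label of the iFoxA1Treg arrays describes the RNA on them cannot be settled here, so every value is a difference between arrays so labelled.

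Array medians lay close together, but the iFoxA1Treg arrays reached higher at the bright end. Medians of the deposited log2 values were 4.80 to 4.83 in EncT and 4.64 to 4.70 in iFoxA1Treg, and the brightest probe set reached 13.7 to 13.8 in EncT and 15.6 to 15.7 in iFoxA1Treg. Pearson correlations over all probe sets, which share probe design and brightness, were 0.828 to 0.839 within EncT, 0.846 to 0.857 within iFoxA1Treg and 0.699 to 0.739 between them. EncT correlated with the nFoxA1Treg and Treg arrays at 0.815 to 0.847. The median SD over genes was 0.113 in EncT and 0.0811 in iFoxA1Treg.

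Of 12741 genes past the filter on low levels, 4571 were higher in iFoxA1Treg (35.9%) and 4389 were lower (34.4%) at an adjusted p under 0.05. With the values left as deposited, 40.2% of the called genes were higher, against 51% after quantile normalization, and the median difference of all genes moved from 0.023 to -0.11. For 74.6% of the genes, all 3 arrays of a group lay on 1 side of the other 3. Passing the test was common, at 70.3% of the genes, and a rule that also asks for at least 4-fold was used to describe groups of genes. By that rule 612 genes were higher (4.8%) and 345 lower (2.71%). The changes were lopsided in size. At least 16-fold rises were found for 195 genes against 14 such falls, and at least 64-fold rises for 66 genes against 1 fall.

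**Figure D1:**
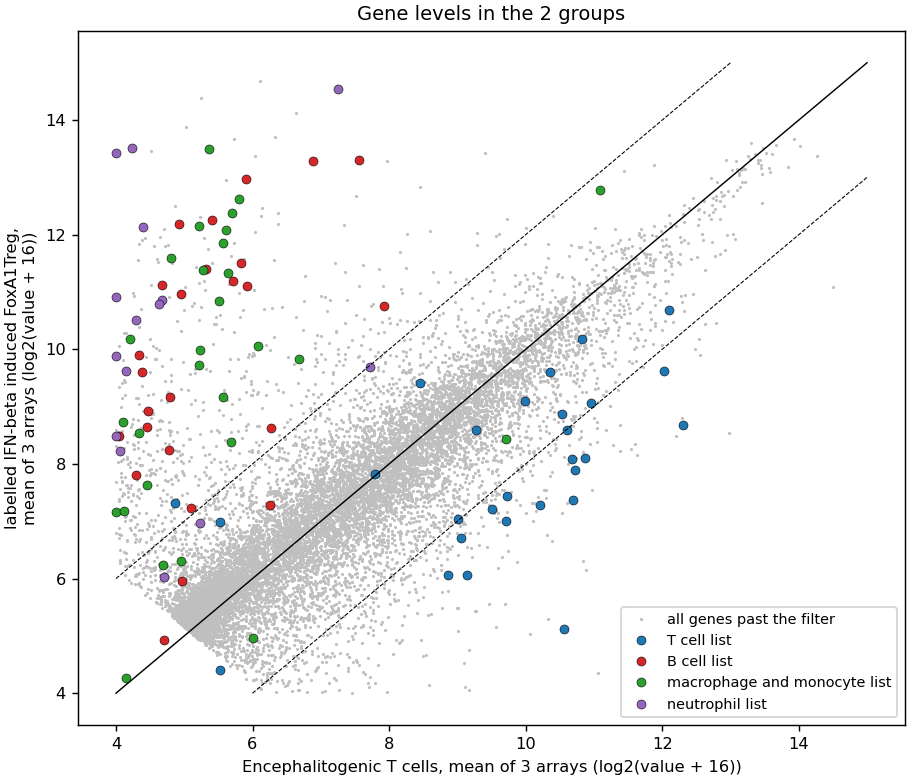
Mean level of each gene in iFoxA1Treg (vertical axis) against EncT (horizontal axis), both as log2(value + 16) over 3 arrays, for the 12741 genes past the filter (grey) and for members of 4 marker lists (coloured). Points outside the dashed lines differ by at least 4-fold, and most B cell, macrophage and neutrophil genes lie above the upper line, while 15 T cell genes lie below the lower line.

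The largest rise on this scale was in S100a9, an alarmin of neutrophils and monocytes. It lay at 4.0 on each EncT array and at 13.41, 13.44 and 13.43 on the iFoxA1Treg arrays, a difference of 9.43 (SE 0.0553, 689-fold, adjusted p = 4.08e-13). Its partner S100a8 was at 4.46, 4.0 and 4.22 against 13.56, 13.49 and 13.50, a difference of 9.29. Both were at the floor or close to it in EncT and among the brightest genes of the iFoxA1Treg arrays. With 64 added in place of 16, the differences of S100a9 and S100a8 were 7.44 and 7.46, below those of Slpi (7.82) and Ccl8 (7.55), so the order of the largest rises depends on the number added. Next came Wfdc21 (9.14), a small secreted protein, the monocyte-attracting chemokines Ccl12 (8.95) and Ccl8 (8.86), Slpi (8.58), an inhibitor of neutrophil elastase, and Msr1 (8.12), a scavenger receptor of macrophages. Mzb1 (7.93), a chaperone of antibody-making B cells, Ngp (7.74), a neutrophil granule protein, and C3ar1 (7.64), the receptor for complement fragment C3a, followed. Each of these had 3 iFoxA1Treg values at 12.09 or above and 3 EncT values at 6.31 or below. Wfdc21, Ccl8 and Slpi had the same value on all 3 iFoxA1Treg arrays because they held the same rank on each, and quantile normalization gives equal ranks equal values.

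The largest fall was in Xist, the RNA that silences 1 X chromosome in female cells. Xist was at 11.13, 10.58 and 11.48 in EncT and at 4.23, 4.25 and 4.60 in iFoxA1Treg, a difference of -6.70 (SE 0.204, adjusted p = 6.32e-09). The Y-linked genes ran the other way. Eif2s3y, a translation factor subunit, was at 4.14, 4.73 and 4.33 in EncT and at 9.79, 9.65 and 9.54 in iFoxA1Treg, and Kdm5d and Uty, both histone demethylase genes, were higher by 3.39 and 3.25. EncT thus had the pattern of female cells and iFoxA1Treg that of male cells. Set against EncT in fits of their own, Xist was 11.49 in nFoxA1Treg and 11.52 in Treg and Eif2s3y was 4.20 and 4.40. Sex and label cannot be told apart in this comparison. After Xist and Cd4, the largest falls were in Ermn (-5.12), Sytl2 (-5.03), which tethers secretory vesicles, Tox2 (-5.03), a DNA-binding factor of T and NK cells, Msc (-5.01), a repressor of the helix-loop-helix family, and Penk (-4.73), the enkephalin precursor. Crmp1 (-4.57), Anxa6 (-4.53) and the metallothionein Mt3 (-4.44) were next.

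Groups of genes were then read as counts over all members with a named probe set, against a background of 18193 genes of which 56.4% were called, 29.1% higher and 27.3% lower, at an adjusted p under 0.05. For 63.1% of them the 2 groups did not overlap. With the demand for 4-fold, the background was 3.36% higher and 1.9% lower. The median difference over all these genes was 0.023. In bulk RNA, fewer cells of a type and less RNA of that type per cell cannot be told apart.

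Genes of the T lineage fell, but most did not vanish. Of 28 measured members of the T cell list, 24 were lower and 3 higher, and 15 were at least 4-fold lower, with a median of -2.15. Summed over the list, the linear values ran from 36600 to 39200 in EncT and from 9720 to 9960 in iFoxA1Treg. None of the 5 defining markers had a mean under 5 in either group, but Cd4 was barely above it in iFoxA1Treg (5.115). The second Cd4 probe set was near the floor there, at 4.47, 4.01 and 4.20. Cd3e, a signalling chain of the T cell receptor, was at 10.63, 10.97 and 10.57 in EncT and at 7.83, 7.91 and 7.96 in iFoxA1Treg. Every iFoxA1Treg array was well below every EncT array, by 2.82 on average (SE 0.102, adjusted p = 1.95e-08), yet also well above the floor. Cd3g fell by 2.41, Cd247, the zeta chain, by 1.65, and Cd3d by 1.42 to values of 10.59, 10.74 and 10.74. Thy1, a surface protein of mouse T cells, went from 12.16, 12.53 and 12.22 to 8.62, 8.67 and 8.73. Themis, needed for T cell selection, fell by 3.33, Ubash3a, a brake on receptor signalling, by 3.09, and Cd5, an inhibitory co-receptor, by 2.92. Cd2, an adhesion receptor, fell by 0.64 and Bcl11b, a factor that holds T cell identity, by 0.76. Thus the loss ranged from 43.6-fold for Cd4 to 1.55-fold for Cd2 within a single list. The 3 members that rose were Txk, a Tec family kinase (2.45, adjusted p = 1.9e-06), Cd27, a costimulatory receptor (1.47), and Lef1, a factor of naive T cells (0.96). Trat1 did not pass the test.

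Cd8a, which encodes the co-receptor of killer T cells, moved against Cd4. It lay near the floor in EncT at 4.0, 4.29 and 4.14 and was at 7.61, 7.67 and 7.62 in iFoxA1Treg, and each of its probe sets past the filter was higher there. Cd8b1, its partner chain, rose by 1.39. The NK cell and cytotoxic list, which includes both CD8 genes, was divided. Of its 15 measured members 8 were higher, of which Cd8a alone by at least 4-fold, and 4 were at least 4-fold lower. The falls were in Gzma (-2.70), a granule protease, Nkg7 (-2.64), Fasl (-2.43), a ligand that kills through Fas, and Tbx21 (-2.11), the Th1 master factor. The NK receptor Ncr1 was at 5.45, 5.52 and 5.23 in iFoxA1Treg and near the floor in EncT.

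The kinases and adaptors behind the receptor followed the T cell markers. In the T cell receptor pathway 14 of 15 members were lower, 7 by at least 4-fold, with a median of -1.89. Zap70, the kinase that docks on the CD3 chains, was at 9.65, 9.87 and 9.65 in EncT and at 7.39, 7.50 and 7.43 in iFoxA1Treg. The Src kinase Fyn fell by 2.29, the adaptor Lat by 1.89 and the phospholipase Plcg1 by 1.89. Vav1, which T and B cells share, differed by 0.08 and did not pass the test.

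B cell genes were the mirror image. Of 25 measured members of the B cell list 24 were higher, 22 by at least 4-fold, and none was lower, with a median of 5.19. Their summed linear values were 921 to 1130 in EncT and 56300 to 60300 in iFoxA1Treg. Cd79b, a signal chain of the B cell receptor, was at 4.54, 5.0 and 5.23 in EncT and at 12.14, 12.19 and 12.24 in iFoxA1Treg. That is a step from near the floor to a high level on all 3 arrays, by 7.27 (SE 0.149, adjusted p = 5.21e-10). Ms4a1, which encodes CD20, was at 4.96, 5.30 and 5.97 against 12.23, 12.27 and 12.27, and Cd22, an inhibitory lectin of B cells, at 5.91, 5.82 and 5.97 against 12.85, 12.97 and 13.07. Cd79a rose by 3.48 to 8.18, 8.21 and 8.36. The factor Ebf1, which commits cells to the B lineage, was at 5.95, 5.95 and 5.85 against 11.14, 11.08 and 11.11. Pax5, which maintains that identity, rose less, by 1.0 to 5.75, 5.92 and 6.21. The heavy chain gene Ighm was at 8.11, 7.60 and 6.99 in EncT, above the floor, and at 13.22, 13.35 and 13.36 in iFoxA1Treg. Chst3 was the 1 measured member that did not pass the test. Cr2 and Fcer2a, complement and IgE receptors of mature B cells, rose by 3.51 and 2.13.

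The signalling proteins of the B cell receptor rose with the markers. In that pathway 14 of 15 members were higher and 11 by at least 4-fold. Syk, the B cell counterpart of Zap70, was at 4.49, 4.60 and 4.59 in EncT and at 11.89, 11.79 and 11.71 in iFoxA1Treg. No EncT array was above the floor region for Syk, and all 3 iFoxA1Treg arrays were bright (difference 7.24, adjusted p = 1.1e-11). The adaptors Bank1 and Blnk rose by 6.08 and 6.01 and the kinase Btk by 5.56. The 8 chains that carry the ITAM, the paired-tyrosine motif on which Zap70 or Syk docks, divided by lineage. All 4 CD3 chains fell, while Cd79a, Cd79b and the myeloid chains Tyrobp (6.11) and Fcer1g (5.33) rose.

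**Figure D2:**
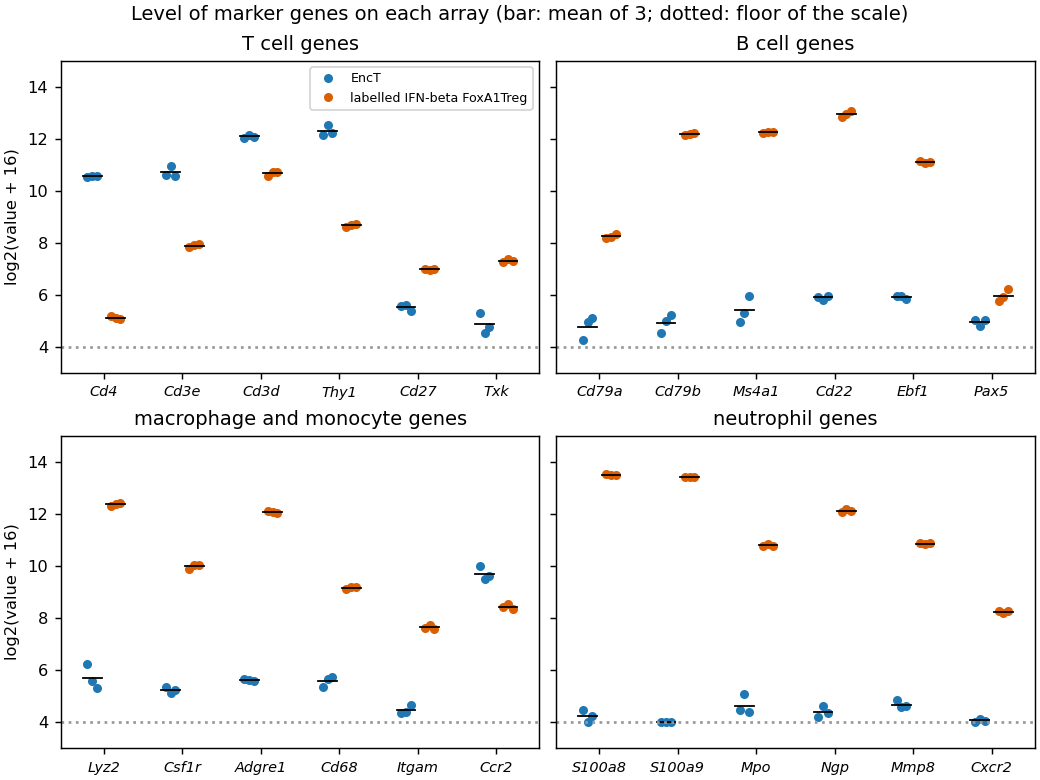
Level of 6 genes of each of 4 marker lists on each array, as log2(value + 16), with EncT in blue, iFoxA1Treg in orange, a bar at the mean of 3 arrays and a dotted line at the floor of the scale. Cd4 is near 5 and Cd3d near 11 in iFoxA1Treg, the B cell, macrophage and neutrophil genes shown are higher there except for Ccr2, and replicates lie close together.

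Part of the antibody-secreting programme was also present. In the plasma cell list 9 of 12 measured members were higher, 7 by at least 4-fold, and 1 lower. Jchain, which joins IgA and IgM into polymers, was at 4.97, 4.88 and 4.07 in EncT and at 11.99, 11.93 and 11.95 in iFoxA1Treg. Igha, the IgA heavy chain, rose by 7.52 and Sdc1, which encodes CD138, by 2.91. Tnfrsf17, the receptor of plasma cell survival factors, was near the floor in both groups, at 4.37, 4.49 and 4.55 in iFoxA1Treg. Prdm1, the plasma cell master factor that activated T cells also carry, fell by 1.61, from 9.12, 8.74 and 8.98 to 7.42, 7.34 and 7.26.

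Macrophage and monocyte genes rose to a similar extent. Of 28 measured members 25 were higher, 22 of them by at least 4-fold, and 2 were lower, with a median of 4.35. Summed linear values were 2930 to 4160 in EncT and 59500 to 60900 in iFoxA1Treg. Adgre1, which encodes the F4/80 antigen, was at 5.66, 5.60 and 5.57 against 12.10, 12.09 and 12.03. Lyz2, lysozyme, was at 6.21, 5.58 and 5.32 against 12.31, 12.40 and 12.43. Csf1r, the receptor macrophages need to survive, was at 5.36, 5.12 and 5.24 against 9.89, 10.05 and 10.03. All 3 were high on every iFoxA1Treg array, with no overlap (differences 6.46, 6.67 and 4.75, adjusted p = 7.66e-12, 3.98e-09 and 2.78e-10). The integrin Itgam, CD11b, rose by 3.18, the lysosomal protein Cd68 by 3.60, the high-affinity IgG receptor Fcgr1 by 6.93 and the pore protein Mpeg1 by 6.79. The C1q chains C1qa, C1qb and C1qc rose by 3.16, 4.20 and 3.05 from levels near the floor. The 2 that fell were the chemokine receptors Ccr2, which T cells carry too and which went from 10.00, 9.51 and 9.63 to 8.43, 8.53 and 8.36, and Cx3cr1 (-1.06). Cd163 was near the floor in both groups.

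Markers of macrophages fixed in 1 organ rose less as a group, with a median of 0.355. In that list 8 of 15 measured members were higher, 3 by at least 4-fold, and Gata6 of the peritoneal cavity, Clec4f of the liver and Tmem119 of the brain did not pass the test. The 3 large rises were in the haem genes Hmox1 (4.16) and Spic (3.41), a factor of red pulp macrophages, and in Vcam1 (3.13). Pparg, a lipid-sensing nuclear receptor that some T cells also express, fell by 4.41, from 8.78, 9.39 and 9.35 to 4.76, 4.87 and 4.66.

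Neutrophil genes had the highest median of the 14 cell type lists, at 6.16. All 15 measured members were higher, 12 by at least 4-fold, and the summed linear values were 328 to 668 in EncT against 61200 to 61500 in iFoxA1Treg. All 5 defining markers were near the floor in EncT and none was in iFoxA1Treg. The list held genes of both early and late granules. Mpo, myeloperoxidase of the primary granules, was at 4.45, 5.07 and 4.37 against 10.77, 10.86 and 10.76, and Prtn3, proteinase 3, rose by 5.48. Camp, the cathelicidin of the secondary granules, was at 4.0 on each EncT array against 10.84, 10.92 and 10.98. Ltf, lactoferrin, rose by 6.21 and Mmp8, neutrophil collagenase, by 6.19. These genes were thus near the floor in EncT and high on all 3 iFoxA1Treg arrays. Genes of mature blood neutrophils rose as well, with Csf3r, the G-CSF receptor, at 8.43, 8.44 and 8.60 and Cxcr2, the receptor for neutrophil chemokines, at 8.26, 8.19 and 8.26. Elane, neutrophil elastase, rose by 1.75 and Mmp9 by 1.97, from EncT values that spread widely at 8.96, 6.71 and 7.49.

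Receptors that macrophages, neutrophils and B cells use to sense microbes and antibody moved with these lists. All 8 Fc receptor genes were higher, 6 by at least 4-fold, with Fcgr2b, the inhibitory IgG receptor, up by 5.48, Fcgr4 by 4.73 and Fcgr3 by 4.51. Of 10 measured C-type lectins 9 were higher, 8 by at least 4-fold, led by Clec4d (5.90) and Clec4a3 (4.99). Of 17 Toll-like receptor genes and partners 12 were higher and none lower. Ly86, the partner of Cd180, rose by 6.91, Tlr7, the sensor of single-stranded RNA, by 4.27 and Tlr13 by 4.22, while Tlr3, Tlr8 and Tlr9 and the adaptors Myd88 and Ticam1 did not pass the test. Of 11 measured complement genes 10 were higher and 9 by at least 4-fold. Cfb, factor B of the alternative pathway, was at 5.96, 6.19 and 5.97 in EncT and at 13.33, 13.48 and 13.31 in iFoxA1Treg.

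The genes of antigen presentation to CD4 T cells rose without exception. All 9 measured MHC class II genes were higher, 7 by at least 4-fold, with a median of 5.71. H2-Aa, the alpha chain of the I-A molecule, was at 6.21, 6.67 and 6.24 in EncT and at 12.41, 12.35 and 12.39 in iFoxA1Treg, and its partner H2-Ab1 rose by 6.02. The EncT values lay above the floor and the iFoxA1Treg values far above them, with no overlap. H2-Ob, a regulator of peptide loading that is typical of B cells, rose by 6.67, Cd74, the invariant chain, by 3.54, and Ciita, the master activator of these genes, by 2.94.

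The remaining blood lineages differed from list to list. In the plasmacytoid dendritic cell list 9 of 10 were higher and 7 by at least 4-fold, but Siglech, its most specific marker, was at 5.25, 5.48 and 5.56 in iFoxA1Treg, and Ly6d (6.17), Tcf4 (4.10) and Irf8 (3.60) are also B cell genes. In the conventional dendritic cell list 7 of 16 measured members were higher and 5 lower. Its integrin Itgax and the factor Zbtb46 did not pass the test, Cd83 (3.66), Kmo (3.29) and Ccr7 (2.89) rose, and Batf3 (-3.17) and Id2 (-2.64), both also active in T cells, fell. In the erythroid and megakaryocyte list 8 of 10 were higher, 4 by at least 4-fold, and none lower. Pf4, platelet factor 4, was at 7.49, 5.81 and 5.70 against 13.72, 13.72 and 13.68. Ppbp rose by 5.44, Gata1 by 3.10 and Itga2b by 2.33, while Klf1 and Hba-a1 of the red cell lineage did not pass the test. EncT replicate 1 was the highest EncT array for Pf4 and for Ppbp (5.365, 4.33 and 4.07).

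Several mast cell and basophil genes depended on EncT replicate 1. Tpsb2, a mast cell tryptase, was at 11.88, 5.61 and 5.31 in EncT and at 4.82, 4.97 and 4.82 in iFoxA1Treg, and Cpa3, a mast cell protease, was at 9.45, 6.52 and 5.75 against 7.70, 7.71 and 7.63. EncT replicate 1 was the high array for both, and also for Cma1 (8.64) and Fcer1a (7.91). Summed linear values of the list ranged from 415 to 5270 in EncT. With all arrays 5 of 10 members were higher, 2 by at least 4-fold, and 1 lower. The lower member was Cyp11a1 (-2.52), for which EncT replicate 1 was instead the lowest EncT array, at 6.62 against 8.62 and 8.13. Without EncT replicate 1 the counts were 7 higher, 5 by at least 4-fold, and 3 lower. Mcpt8, a basophil protease, was near the floor on all EncT arrays and at 8.81, 8.84 and 8.64 in iFoxA1Treg. Without that array 21 B cell, 22 macrophage and 13 neutrophil genes were at least 4-fold higher and 15 T cell genes lower.

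**Figure D3:**
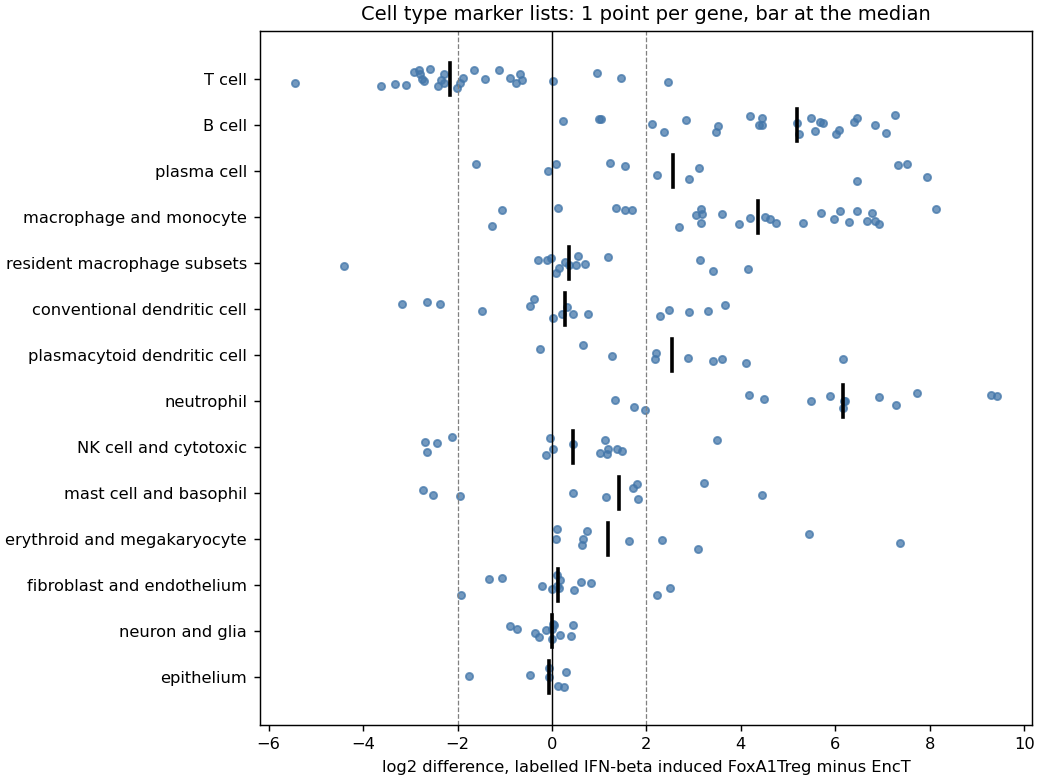
Difference between iFoxA1Treg and EncT on the log2 scale for every measured member of 14 cell type marker lists, with 1 point per gene, a bar at the median and dashed lines at 4-fold. Medians reach 6.16 for neutrophil, 5.19 for B cell and 4.35 for macrophage genes, are near 0 for fibroblast, neuron and epithelial genes, and are -2.15 for T cell genes.

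Tissue cells outside the blood system left little trace. None of 12 neuron and glia genes or 7 epithelial genes was changed by at least 4-fold. Of 14 fibroblast and endothelial genes 2 were at least 4-fold higher, Kdr (2.49) and Vwf (2.22), the latter also made by megakaryocytes, while Col1a1 fell by 1.94. Genes of all white blood cells stayed high in both groups. Ptprc, which encodes CD45, was at 12.36, 12.16 and 12.42 against 12.54, 12.52 and 12.52. None of 13 such genes changed by 4-fold, although 11 were lower, among them the integrin chains Itgal (-1.83) and Itgb2 (-1.66).

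The iFoxA1Treg arrays therefore held, at high levels and at once, the marker genes of B cells, of macrophages and monocytes, and of neutrophils, with lower T cell genes and Cd4 at 5.06 to 5.17. Most members of the plasmacytoid dendritic cell list and of the erythroid and megakaryocyte list, such as Pf4 in the latter, were higher too. Whether these genes were expressed in the same cells or in different cells of a mixture was not tested and cannot be read from bulk RNA. Of the factors that specify these lineages, those of B and myeloid cells were higher along with the marker lists, and those of T cells were divided. All 19 measured B and myeloid factors were higher and 14 by at least 4-fold, among them Spib (6.40), Bach2 (5.69) and Mef2c (5.24). Spi1, which encodes PU.1, was at 5.31, 5.47 and 5.33 against 7.20, 7.33 and 7.32. Among 12 T lineage factors 5 were lower and 6 higher, with a median of 0.32. Rora (-2.63), Gata3 (-2.34) and Tbx21 (-2.11) fell, whereas Foxp3 (1.37), Lef1 (0.96), Tox (0.92), Ets1 (0.58), Satb1 (0.52) and Ikzf2 (0.45) rose.

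Neither of the other T cell groups had this pattern when set against the same EncT arrays, which the comparisons share. At an adjusted p under 0.05, 5.54% of the 18193 genes were called in nFoxA1Treg and 5.24% in Treg. At least 4-fold changes were found for 1 gene higher (0.0055%) and 3 lower (0.0165%) in nFoxA1Treg and for 3 higher (0.0165%) and 1 lower (0.0055%) in Treg. No B cell, macrophage, neutrophil or type I interferon gene was at least 4-fold higher in either. The B cell median was -0.103 in nFoxA1Treg and -0.086 in Treg, and the macrophage median was -0.275 and -0.136. Cd4 was at 10.48 ± 0.0625 (SD, n = 3) in nFoxA1Treg and 10.42 ± 0.0556 (SD, n = 3) in Treg. S100a8 was at 4.12 and 4.14 and Lyz2 at 4.23 and 4.51, so both lay near the floor in these groups. Lyz2 was at 5.76 in EncT in these fits, and its differences of -1.53 and -1.25 passed the test (limma adjusted p = 0.00815 and 0.0187). Of 28 macrophage genes 7 were lower in nFoxA1Treg and 5 in Treg. Among 9 MHC class II genes 5 and 4 were lower, and none of either list was higher.

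The interferon response was the group closest to the named treatment. All 35 measured members of the type I interferon list were higher, 27 by at least 4-fold, with a median of 3.17. Their summed linear values were 8070 to 10100 in EncT and 68500 to 69800 in iFoxA1Treg. Usp18, which shuts off receptor signalling, was at 4.50, 4.0 and 4.47 against 11.51, 11.59 and 11.60. Oasl1, an antiviral regulator, was at 5.06, 5.46 and 5.15 against 12.24, 12.34 and 12.35, and Ifit3, an antiviral adaptor, at 4.51, 4.90 and 4.38 against 11.51, 11.60 and 11.62. All 3 were near the floor or little above it in EncT and bright on every iFoxA1Treg array (differences 7.24, 7.08 and 6.98, adjusted p = 2e-10, 6.06e-11 and 2.2e-10). Rsad2, viperin, rose by 6.41, Ifit1 by 6.12, Oas2, an RNA-sensing synthetase, by 5.73, Irf7, the amplifier of interferon production, by 4.51 and Mx1, an antiviral GTPase, by 2.79. The least changed members were Stat2 (1.19) and Irf9 (1.34), both subunits of the factor that drives the list. Macrophages and B cells carry part of this list without added interferon, and the share of the rise that goes with the lineage genes was not tested.

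**Figure D4:**
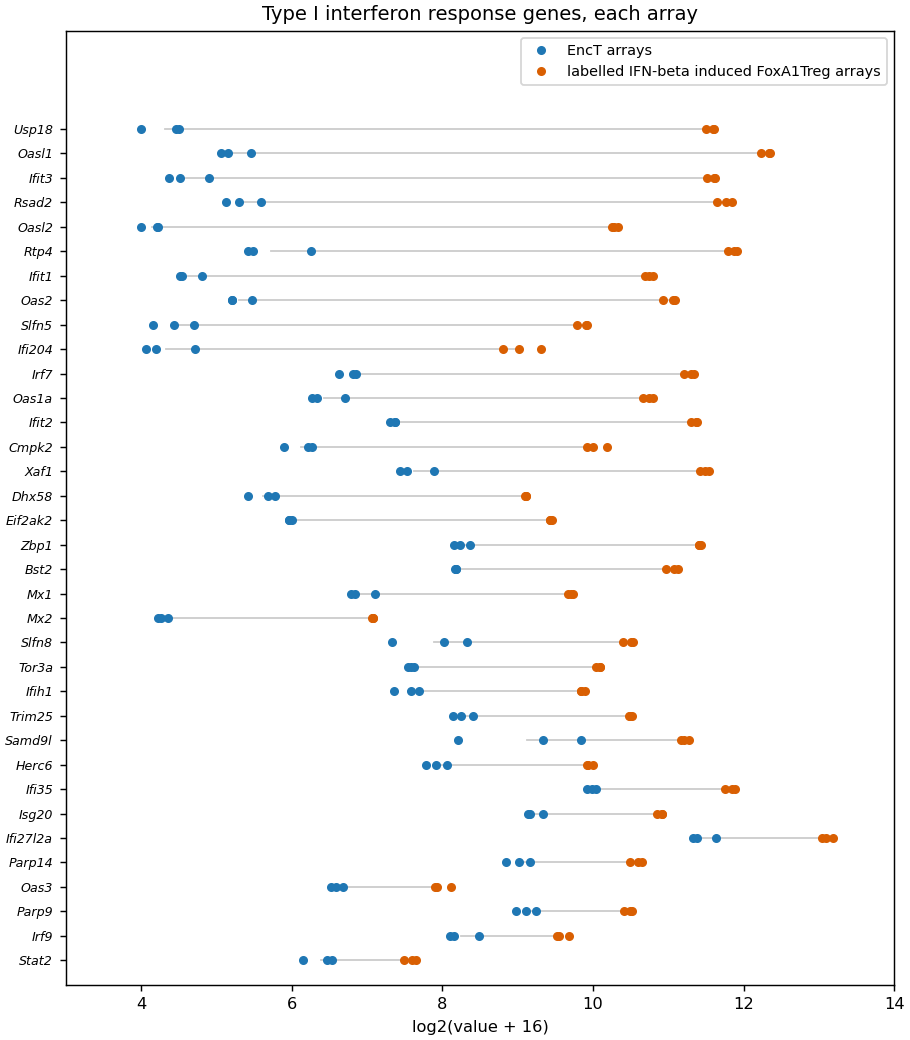
Level of each of the 35 measured type I interferon response genes on each array, as log2(value + 16), with EncT in blue, iFoxA1Treg in orange and a grey line between group means, ordered by the difference. In no gene do the groups overlap, and the difference runs from 7.24 for Usp18 to 1.19 for Stat2.

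Promoters of these genes were searched for the core of the interferon-stimulated response element, since the genes moved together. The core was spelled GAAA, 2 bases of any kind, and GAAA again, and read on both strands of the 250 bases before the start of transcription. It was present in 10 of 26 list members with a promoter in the RefSeq table (38.5%). Of all 27025 genes with a promoter there, 936 had it (3.46%). The 26 were counted whether or not the member had a value on the arrays. In the interferon gamma list the core was found in 10 of 16 genes (62.5%), and in the B cell list in 2 of 20 (10%). The macrophage list had it in 2 of 22 (9.09%), and 0 of 16 neutrophil and 0 of 21 T cell genes did. Oasl1, Oasl2 and Irf7 rose strongly without a match in this window. A match describes letters and is not evidence of binding. Shown are 4 promoters, those of the interferon list members that rose most among the measured members with a match. They are from RefSeq on build GRCm38.p6, 5′ to 3′ on the strand of the gene, with matches in capitals.
Ifit3, chr19:34583279-34583528, plus strand: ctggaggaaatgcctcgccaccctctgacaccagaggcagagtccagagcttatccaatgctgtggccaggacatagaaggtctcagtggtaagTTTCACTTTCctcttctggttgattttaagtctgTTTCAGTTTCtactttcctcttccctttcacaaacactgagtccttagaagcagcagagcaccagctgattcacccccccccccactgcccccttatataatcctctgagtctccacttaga
Rsad2, chr12:26456453-26456702, minus strand: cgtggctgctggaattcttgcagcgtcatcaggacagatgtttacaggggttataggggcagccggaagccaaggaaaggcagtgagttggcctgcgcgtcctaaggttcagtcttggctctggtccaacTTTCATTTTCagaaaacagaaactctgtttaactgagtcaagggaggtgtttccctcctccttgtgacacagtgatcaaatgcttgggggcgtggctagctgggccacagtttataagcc
Ifit1, chr19:34640639-34640888, plus strand: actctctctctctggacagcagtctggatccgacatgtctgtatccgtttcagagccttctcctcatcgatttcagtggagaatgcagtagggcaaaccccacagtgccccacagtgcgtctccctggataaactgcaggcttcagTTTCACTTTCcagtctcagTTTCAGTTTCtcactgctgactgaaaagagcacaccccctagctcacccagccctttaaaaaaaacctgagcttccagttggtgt
Slfn5, chr11:82951852-82952101, plus strand: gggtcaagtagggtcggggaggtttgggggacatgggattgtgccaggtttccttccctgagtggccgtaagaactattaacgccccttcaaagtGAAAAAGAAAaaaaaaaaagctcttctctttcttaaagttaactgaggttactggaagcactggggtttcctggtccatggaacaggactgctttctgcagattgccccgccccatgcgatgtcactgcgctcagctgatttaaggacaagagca
Ifit3 and Ifit1 each held 2 matches, and Rsad2 and Slfn5 held 1. The first match began 156 bases before the start in Ifit3, 120 in Rsad2, 104 in Ifit1 and 155 in Slfn5.

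Genes of the interferon gamma response, which overlaps the type I response, rose less. Of 18 measured members 17 were higher and 6 by at least 4-fold, with a median of 1.38. The chemokine Cxcl10 led with 6.14, from 4.80, 4.63 and 4.90 to 11.02, 10.90 and 10.83. The immunity-related GTPase Iigp1 rose by 2.79 and Cxcl9 by 2.48, while the immunoproteasome subunits Psmb8 and Psmb9 rose by 0.29 and 0.44. The receptors diverged from their targets. Ifnar1, a chain of the interferon beta receptor, was at 7.84, 7.76 and 7.79 in EncT and at 7.65, 7.87 and 7.84 in iFoxA1Treg. The groups overlapped, and the difference of -0.01 (SE 0.0802) did not pass the test (limma adjusted p = 0.902). A second Ifnar1 probe set past the filter was called lower, at -0.55, so the result for this chain depends on the probe set. Ifnar2, the other chain, rose by 1.58, Ifngr2 by 3.22 from near the floor, and Ifngr1 fell by 0.39. The kinases Jak1, Jak2 and Tyk2 changed by 0.29, -0.24 and -0.92.

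The regulatory T cell core genes mostly fell. Of 20 measured members 12 were lower and 5 higher, 4 and 1 of them by at least 4-fold, with a median of -1.12. In the other groups with a regulatory label, the list stayed close to EncT. Its median was -0.125 in nFoxA1Treg, with 2 members higher, and -0.0095 in Treg, with 1 higher and 2 lower. Il2ra, the CD25 chain of the interleukin 2 receptor, was at 8.35, 8.85 and 9.10 in EncT and at 6.28, 6.26 and 6.19 in iFoxA1Treg. Icos, a costimulatory receptor, fell by 2.76, Il2rb by 2.56 and Ctla4, an inhibitory receptor, by 2.24. The large rise was in Il10, an anti-inflammatory cytokine that macrophages and B cells also make, from 5.22, 6.34 and 5.98 to 8.50, 8.39 and 8.47 (difference 2.61, adjusted p = 8.98e-06). Among 22 inhibitory ligands and mediators 8 were higher and 10 lower. Sirpa, the myeloid receptor for CD47, rose by 6.29, Cd86 by 3.21, Arg1, arginase, by 2.97 and Btla by 2.84. Pdcd1, which encodes PD-1, fell from 9.08, 9.95 and 9.74 to 6.14, 6.33 and 6.09. Lgals1, galectin 1, fell by 3.40 and Havcr2, TIM-3, was lower (-2.69). Tgfb1 fell by 3.58 by its brightest probe set, but a second probe set differed by 0.05, so its direction rests on 1 probe set.

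Effector genes of helper T cells fell with the T cell markers. Of 18 measured members 11 were lower and 3 higher, 8 and 1 of them by at least 4-fold. Cxcr6, a homing receptor of effector T cells, was at 12.23, 12.15 and 12.25 in EncT and at 8.42, 8.54 and 8.52 in iFoxA1Treg. Il12rb2, a receptor chain of Th1 cells, fell by 3.02 to the floor and Ifng, interferon gamma, by 2.22. Il17a was at 6.75, 7.93 and 6.41 against 7.0, 6.35 and 7.10 and did not pass the test. Ccr6, a receptor of Th17 cells that B cells also carry, rose by 5.06.

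Genes of dividing cells were lower throughout. Of 33 measured cell cycle genes 32 were lower and none higher, 7 by at least 4-fold, with a median of -1.60. Ccnb2, cyclin B2, was at 10.89, 11.21 and 11.06 in EncT and at 8.36, 8.37 and 8.43 in iFoxA1Treg. Birc5, survivin, fell by 2.41, and Tyms, thymidylate synthase (-2.15), and Bub1b, a spindle checkpoint kinase (-2.13), were lower. They stayed above the floor except Tyms, at 4.64, 4.91 and 4.84. Mki67, the proliferation antigen, was at 9.57, 9.59 and 9.57 in iFoxA1Treg, and Cdt1, a licensing factor of replication, did not pass the test.

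A gene's value rests on 1 probe set, and probe sets of a gene often diverged here. Of the probe sets with 1 gene past the filter, 68.6% were called. Of 5702 genes with several probe sets past the filter, 754 (13.2%) had called probe sets pointing both ways, and 253 (4.44%) had probe sets more than 2 log2 apart. In the comparisons of nFoxA1Treg and Treg with EncT the former counts were 23 (0.406%) and 25 (0.443%), where far fewer genes were called. A rule described under the processing named 198 called genes, of which 80 had a further probe set bright enough to test. For 17 of the 80, a further probe set was uncalled or had the opposite sign. They include Ccr9, whose probe sets ran from -0.12 to 3.40, and Bcl11a, from -0.62 to 5.29. Vcam1, Col1a1, Ptprc, Tyk2 and Jak1, given above, are also among the 17. Other genes kept their sign but not their size. Probe sets of Fcgr1 ran from 0.33 to 6.93, of Syk from 1.295 to 7.24 and of Msr1 from 2.41 to 8.12. Those of C3ar1 ran from 2.61 to 7.64 and of Csf1r from 1.20 to 4.75. The range was 0.685 to 5.69 for Bach2 and 3.10 to 6.29 for Sirpa. For each of these genes the value given above is the largest. Probe sets of some genes lay close, as for H2-Ab1 (6.02 to 6.12). Over all single probe sets past the filter, named or not, 3.89% were at least 4-fold higher and 2.54% lower.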

How the data were processed

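Total RNA was measured on Affymetrix Mouse430_2 arrays by 3' one-cycle amplification, per the labels' protocols. The deposited table holds log2 values per probe set; the submitters' processing notes name PLIER, a probe summary method, with its version and any normalization between arrays not given in the sources used here. That the base is 2 was judged from the range of the values. Of 45037 probe sets, 34945 had 1 gene in the array annotation, 932 several and 9160 none, and 34741 of the first matched the reference gene table.

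Deposited values were set to log2(value + 16), because values near the floor vary widely without an offset, and quantile normalized over the 6 arrays. Probe sets in the upper 60% by mean (a level of 5.07) were kept, with the brightest per gene. Limma 3.58.1 in R 4.3.3 (lmFit, eBayes with a trend, 4 residual degrees of freedom) gave two-sided p-values, adjusted by Benjamini-Hochberg over all genes at 0.05. The other groups were fitted with EncT separately by the same steps. The steps were tested on simulated data.

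Members and gene lists were chosen with earlier results of these data known. Counts over lists come from the same fit without the filter, over 18193 genes; this was chosen after the counts with the filter had been seen, because a member that passes a filter only through its high group had to differ. Adjusted p-values of single genes come from the fit with the filter, and those of Foxa1 and Foxp3, which lay below it, from the fit without. Named genes were Cd4, Cd274, Foxa1, Foxp3, Pdcd1, Il10, Tgfb1 and Ifnar1, the 10 largest rises and falls without overlap, the defining markers of T cells, B cells and macrophages, and in each list the 4 largest called changes and up to 3 called members against its majority, with all called members of 5 small lists (ITAM chains, X and Y chromosome, interferon receptors, MHC class II and Fc receptors), 200 in all. Other genes were named as examples after their values were seen. The promoter motif, the 1 motif searched, and the gene sets searched for it were also chosen after the values were seen.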

Additional observations from a re-analysis of the deposited data

Results flagged for a closer look

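Probe sets with no gene in the array annotation lie outside the comparisons of genes. Of 3823 such probe sets past the filter, 77 were at least 4-fold higher in iFoxA1Treg than in EncT and 114 at least 4-fold lower at an adjusted p under 0.05. Of all 27022 probe sets past the filter, 3.89% were at least 4-fold higher and 2.54% lower. The 2 with the largest rises were 1428720_s_at, at 13.1 ± 0.0236 against 5.53 ± 0.0638 (SD, n = 3; difference 7.57, limma adjusted p = 2.33e-12), and 1428719_at, at 12.6 ± 0.0538 against 5.22 ± 0.132 (SD, n = 3; difference 7.39, adjusted p = 9.98e-12). They were listed because these probe sets enter no comparison of genes and 77 of them were higher than in EncT, although more of them were lower.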

How the results depend on the processing

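With 64 added in place of 16, 386 genes were at least 4-fold higher and 130 lower, against 612 and 345, and among the brightest 40% of probe sets 429 genes had called probe sets pointing both ways, against 754. Leaving out 1 array gave 4016 to 4649 genes higher, 3964 to 4376 lower, 591 to 637 at least 4-fold higher and 318 to 353 lower. Over the same settings the counts at 4-fold were 21 to 22 B cell, 22 macrophage, 12 to 13 neutrophil, 25 to 27 type I interferon and 7 to 8 MHC class II genes higher, and 14 to 16 T cell genes lower. Signs turned for Bcl11a (-0.872 with no offset and -0.628 in a fit of all 12 arrays), Ccr9 (-0.118 in that fit), Gimap6 (0.133 as the mean of all probe sets) and the uncalled Ifnar1 (0.022 with array weights, and -0.054 to 0.056 when 1 array was left out, with 0.009 without EncT replicate 1 and 0.056 without iFoxA1Treg replicate 1). Bcl11a, Ccr9 and Gimap6 have probe sets that disagree, so the probe set chosen, or the average, sets the sign; for Ifnar1 the cause was not tested. Deviations from the group mean correlated at 0.086, 0.051 and 0.012 between samples with the same replicate number. Between samples with different numbers they correlated at -0.087 to 0.042. With 3 arrays per group these values cannot settle whether the numbers pair the samples. With the replicate block 70.2% of genes were called, against 70.3%, and all 200 named genes kept their call. Values for gene lists were computed without a filter, so no separate setting without it exists for them. Signal over background could not be judged, because the table has no detection calls.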

Other observations

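Energy genes were mostly lower. Of 14 measured glycolysis genes 9 were lower, 2 by at least 4-fold, and none higher, with a median of -0.74. Against EncT in fits of their own, the median of this list was also negative in nFoxA1Treg (-0.52) and Treg (-0.555). Pfkl, the liver-type phosphofructokinase, was at 9.88, 8.98 and 9.27 in EncT and at 6.88, 6.96 and 6.90 in iFoxA1Treg, although another of its probe sets disagreed. Slc16a3, a lactate exporter, (-2.19), and Pkm, pyruvate kinase (-1.94), were lower. EncT replicate 1 was the highest EncT array for these 3 genes. Of 19 measured respiratory chain genes 14 were lower and 2 higher, with a median of -0.30. By the probe sets chosen, 6 of 10 measured ribosomal protein genes were lower, by at most 0.66 (Rpsa). A second Rpsa probe set was not called, and another probe set of Rps3 was lower, at -1.47.

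Immediate early genes, which cells switch on within minutes of a stimulus, were mostly higher. Of 20 measured members 12 were higher and 2 lower, 5 and 0 of them by at least 4-fold. Fos was at 4.47, 5.13 and 4.57 in EncT and at 9.44, 9.44 and 9.46 in iFoxA1Treg, a step from near the floor on all 3 arrays. It was also higher than in EncT in nFoxA1Treg (2.43) and Treg (2.34), in fits of their own. In iFoxA1Treg, Jun rose by 3.14, the RNA-destabilising protein Zfp36 by 2.98 and Egr1 by 2.44, while Junb and Fosb did not pass the test. The GIMAP genes of lymphocytes were divided, with 4 of 8 lower, led by Gimap3 (-1.96), and 2 higher.

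A few genes spread widely among the iFoxA1Treg arrays. Nxnl1 was at 5.19, 10.81 and 11.05 and Sel1l3 at 4.11, 4.17 and 8.51, and Gata2, a factor of mast cells and megakaryocytes, at 8.79, 8.88 and 6.55. The median SD over genes in that group was 0.0811.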
